A study of Homo sapiens with 6 samples.

Results

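The genes described here build and hold the chromosome structures that are pulled apart in mitosis: 43 genes of the centromere, the kinetochore, condensin and cohesin, out of 19775 genes that the array names by a single symbol. They were chosen by name, with earlier results of these data known. Probe sets were taken by an exact match of the platform annotation's gene symbol, and all 43 genes were found, on 82 probe sets. RNA came from RL, an established human B lymphoid line of genotype t(14,18)+, a translocation that follicular lymphomas usually carry. The cells were not treated and were grown as MALC (multicellular aggregates of lymphoma cells) and collected after 10 days, or grown in suspension and collected in exponential growth. Each culture form had 3 samples, each on a single Affymetrix U133 Plus 2.0 array. Both groups come from the same line, and MALC were sampled at a single time.

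The centromere is the chromosome site, marked by the histone variant CENP-A, on which the kinetochore is assembled. Its inner layer, the constitutive centromere-associated network, sits on CENP-A chromatin throughout the cell cycle, and its outer layer, built for mitosis, binds spindle microtubules. Condensin compacts chromosomes for mitosis, whereas cohesin holds sister chromatids together and also shapes interphase chromatin. In dividing lymphoid cells many, but not all, of these genes are transcribed mainly between S phase and mitosis.

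Values are linear signals, 1 per probe set and array. Medians of the 6 arrays lay between 80.6 and 81.5, so the arrays were on a common scale, on which a change common to every transcript cannot be measured. Of the B cell markers, CD79A, CD79B, MS4A1, PAX5 and CD22 were all well measured, with summed signals of 27830 to 31910 (MALC) and 28000 to 33430 (suspension arrays). None of these 5 genes passed the test. The 6 T and NK cell markers summed to 365 to 385 in MALC and 389 to 397 in suspension. Summed myeloid markers (5 of 6 measured) spanned 286 to 311 and 284 to 313. Plasma cell markers (6 of 6) summed to 13720 to 15520 and 13480 to 15120; XBP1 alone of them changed, with a rise. The fibroblast markers (6 of 6) summed to 532 to 583 in MALC and 616 to 1070 in suspension. COL1A2 and COL3A1 were highest in suspension 2, at 347 and 174, while in suspension 1 they were at 54.1 and 25.7, beside up to 54.2 and 24.2 in MALC. The part of these markers in the results was not tested. In bulk RNA, fewer cells in a phase of the cell cycle and less RNA per cell cannot be told apart. The labels do not say that the samples of a group were separate cultures, so p-values measure the spread between these samples only.

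Most of the 43 genes were lower in MALC. All 43 lay above the filter on dim genes, and 30 fell, 1 rose and 12 did not pass the test (limma, Benjamini-Hochberg adjusted p under 0.05 over 13765 genes). Among all genes tested, 23.7% fell and 19.0% rose. The 43 were chosen with earlier results of these data known, so these shares are background and the contrast was not tested. The median log2 change of the 43 was −0.47 against −0.06 for all genes tested, and 40 of the 43 changes were negative. Fold changes are on the scale of log2(signal + 16), which understates changes of dim genes. In 34 of the 43 every MALC array was below every suspension array, as in 33.8% of all genes, and in 1, NCAPD2, every MALC array was above, as in 23.1%. Falls of at least 1.5-fold were seen in 12 of the 43 (6.34% of all genes) and a fall of at least 2-fold in 1, NCAPG2 (0.799% of all genes). NCAPD2 was also the only member that was higher at an unadjusted p under 0.05.

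**Figure D1:**
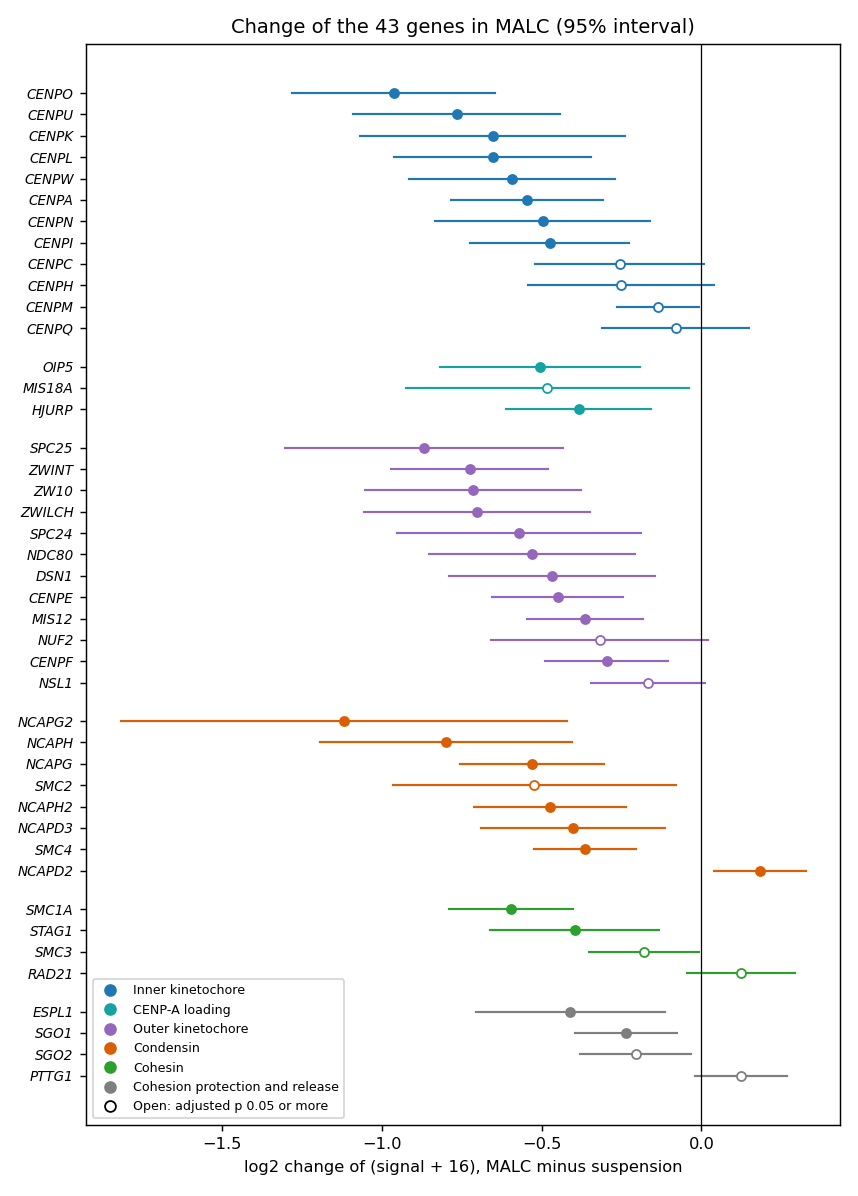
Log2 change of signal + 16 (MALC minus suspension, horizontal axis) of each of the 43 genes with its 95% interval, 3 arrays per group, grouped by role; filled points passed limma at an adjusted p under 0.05. Nearly all points lie left of 0, from NCAPG2 at −1.12 to NCAPD2 at 0.18.

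The count of falls depended on which arrays were used. It was 17 without MALC 2 and 17 without MALC 3, when 15.3% and 16.7% of all genes fell. Without suspension 2 or suspension 3 it was 21, beside 17.9% and 17.8% of all genes. It was 23 without suspension 1 (20.3% of all genes) and 36 without MALC 1 (26.4%). Among the 30 genes, 16 kept their call under each alternative in which they were tested: CENPA, CENPI, CENPL, CENPO, CENPU, CENPW, CENPE, SPC25, MIS12, ZWINT, ZWILCH, ZW10, NCAPG, NCAPH, NCAPH2 and SMC1A. In a fit blocked on the sample number 35 fell and 2 rose, beside 25.8% and 20.7% of all genes.

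The 3 MALC arrays differed in how far these genes were below suspension. Relative to the suspension mean of each gene, the median of the 43 was −0.22 on the log2 scale in MALC 1, −0.52 in MALC 2 and −0.61 in MALC 3. It was 0.09, −0.04 and −0.02 in suspension 1, 2 and 3. MALC 1 was the MALC array nearest to the suspension mean in 39 of the 43 genes and in all 30 genes that fell. Below the lowest suspension array lay 34 of the 43 genes in MALC 1 and 39 in each of MALC 2 and MALC 3. The median SD of the 43 genes was 0.21 in MALC and 0.09 in suspension, beside 0.087 and 0.0789 for all genes tested. The GAPDH control probe sets had 3′ to 5′ ratios of 1.01 to 1.02 (MALC) and 1.04 to 1.06 (suspension). The ACTB ratios spread more widely, at 1.33, 1.22 and 1.31 in MALC 1, 2 and 3 and 1.54, 1.43 and 1.31 in suspension 1, 2 and 3. The part of these ratios in the results was not tested.

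**Figure D2:**
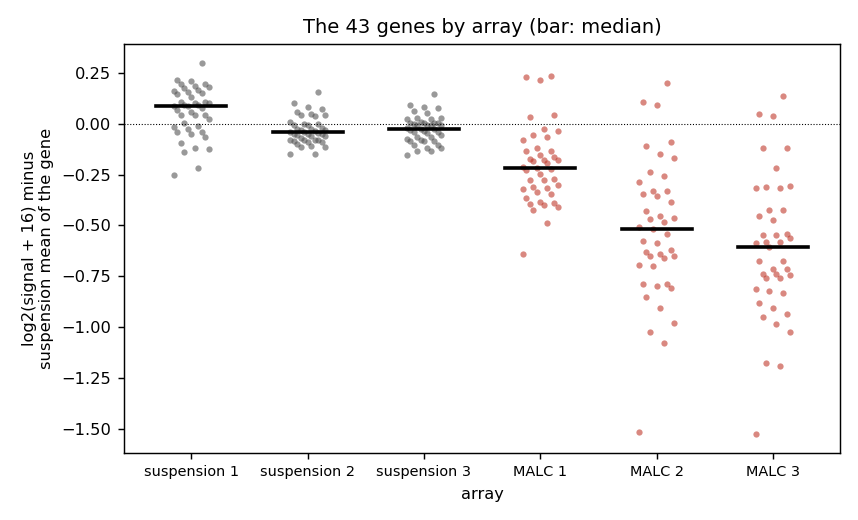
Each point is 1 of the 43 genes in 1 array, as log2(signal + 16) minus the gene's mean in the 3 suspension arrays (vertical axis); bars are medians. The medians step down from −0.22 in MALC 1 to −0.52 and −0.61 in MALC 2 and MALC 3.

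Because many of these genes fell together, the letters of their promoters were searched for elements known from cell cycle genes: the cell cycle homology region CHR (TTTGAA or TTCGAA, the latter the same on both strands), the CCAAT box (CCAAT) and E2F sites (TTTCGCGC, TTTGGCGC or TTTCCCGC), on both strands. RefSeq windows (GRCh38.p14), from 250 bases before to 50 after a gene's start, existed for 37 of the 43 genes, 45 windows in all; CENPH, CENPL, CENPM, MIS18A, NCAPH2 and RAD21 had none. A CHR was in 23 of the 45 windows (51.1%), against 12.2% of the windows of genes tested and 16.4% of all 35116 windows. The CCAAT box was in 28 (62.2%, against 34.7% and 34.6%) and an E2F site in 8 (17.8%, against 3.86% and 2.74%). No match of 1 motif overlapped that of another in these windows, but the several windows of 8 genes can hold the same site. Of the 37 genes, 22 had a CHR, and 17 of these fell (median log2 change −0.50). Of those without, 11 fell (median −0.47). Among 24 genes with a CCAAT box 19 fell (median −0.454), and 9 of those without (−0.475). All 7 genes with an E2F site fell (median −0.506), and 21 of those without (−0.472). Differences between genes with and without an element were not tested. A match of letters is a description and does not show a site in use.

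The 150 bases before the start are shown, 5′ to 3′ in the gene's direction, for the 4 fallen genes with a CHR wholly within the last 60 of these bases, for NCAPG2, which fell most, and for NCAPD2, which rose. Capitals mark CHR, CCAAT and E2F letters on either strand (ATTGG and TTCAAA are the CCAAT box and CHR read from the other strand).
CENPA, chr2:26785906-26786055, plus strand: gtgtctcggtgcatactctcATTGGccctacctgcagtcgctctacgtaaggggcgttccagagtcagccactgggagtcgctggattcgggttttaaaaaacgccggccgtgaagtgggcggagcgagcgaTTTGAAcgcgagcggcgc
ZWINT, chr10:56361260-56361409, minus strand: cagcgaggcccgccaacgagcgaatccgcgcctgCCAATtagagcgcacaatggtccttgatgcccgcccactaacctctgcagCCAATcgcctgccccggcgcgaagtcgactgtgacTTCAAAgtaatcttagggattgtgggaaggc
NCAPG, chr4:17810829-17810978, plus strand: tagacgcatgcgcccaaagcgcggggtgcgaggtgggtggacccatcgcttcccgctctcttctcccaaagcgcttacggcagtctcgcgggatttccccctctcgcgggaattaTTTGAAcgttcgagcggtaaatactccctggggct
ESPL1, chr12:53268149-53268298, plus strand: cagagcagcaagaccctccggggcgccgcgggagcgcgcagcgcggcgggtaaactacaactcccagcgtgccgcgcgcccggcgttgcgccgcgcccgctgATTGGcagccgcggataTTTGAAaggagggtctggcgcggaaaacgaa
NCAPG2, chr7:158704805-158704954, minus strand: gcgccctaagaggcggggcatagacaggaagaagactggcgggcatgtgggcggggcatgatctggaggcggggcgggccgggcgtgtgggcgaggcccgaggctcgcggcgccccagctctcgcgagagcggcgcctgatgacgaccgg
NCAPD2, chr12:6493952-6494101, plus strand: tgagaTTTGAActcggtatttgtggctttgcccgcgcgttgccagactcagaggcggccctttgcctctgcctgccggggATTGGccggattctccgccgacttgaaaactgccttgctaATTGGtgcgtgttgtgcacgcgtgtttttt
CENPA and ESPL1 carried 1 CCAAT box and ZWINT 2, upstream of the CHR, and NCAPG had a CHR alone. NCAPG2 had none of the 3 elements in this stretch, but a CHR 36 bases after the start, for which it counts among the 22 genes. NCAPD2, whose signal rose, had 2 CCAAT boxes and a CHR farther from the start.

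Among the 12 inner kinetochore genes, 8 fell and none rose, with a median log2 change of −0.52. CENPO and CENPU belong to the same subcomplex of the inner layer. CENPO had signals of 242, 175 and 163 in MALC 1, 2 and 3 and 416, 378 and 369 in suspension 1, 2 and 3. The groups were far apart, and CENPO was 1.95-fold lower (193 ± 42.8 against 388 ± 25.05, SD, n = 3 each; limma adjusted p = 0.00142). A dimmer CENPO probe set fell less, with a log2 change of −0.33 against −0.96 (1.26-fold lower, limma over probe sets, adjusted p = 0.0117). CENPU had 3152, 2230.1 and 2113 in MALC against 4123, 4183 and 4277 in suspension, a 1.70-fold fall (adjusted p = 0.00395). Its suspension arrays were tightly grouped and MALC 1 was intermediate. CENPQ, of the same subcomplex, had a log2 change of −0.08 and overlapping groups (adjusted p = 0.537). The unequal values of CENPO, CENPU and CENPQ were not tested against each other.

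CENPH, CENPI, CENPK and CENPM form another subcomplex, which links CENP-A chromatin to the outer layer. CENPK had 1511, 1004 and 901 in MALC against 1891, 1623 and 1763 in suspension (1.57-fold lower, adjusted p = 0.0212). Its fall was smallest in MALC 1. CENPI fell with a log2 change of −0.48. CENPH (1435, 1113 and 1020.1 in MALC against 1495, 1353 and 1364) overlapped between the groups and did not pass (adjusted p = 0.143), while a fit blocked on the sample number gave 0.0477. CENPM did not overlap, yet its change of −0.14 did not pass (adjusted p = 0.0811). CENPK no longer passed when any of MALC 2, MALC 3, suspension 1 and suspension 3 was left out (highest adjusted p 0.0809).

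CENPL and CENPN pair with each other, and CENPN recognises the CENP-A nucleosome. CENPL had 665, 485 and 470.0 in MALC against 793, 874 and 881 in suspension and was 1.57-fold lower (adjusted p = 0.0062). CENPN fell with a log2 change of −0.50 (−0.76 with the mean of its probe sets), a call lost without any array except MALC 1 (adjusted p up to 0.0933). CENPA itself fell 1.46-fold, from 1667 ± 64.8 in suspension to 1144 ± 159 in MALC (adjusted p = 0.00448). CENPW, a histone fold partner in the network, fell 1.51-fold. CENPC, a scaffold of the inner layer, had 702, 649 and 639 in MALC against 666, 888 and 849. Suspension 1 lay among the MALC arrays, and CENPC did not pass (adjusted p = 0.106), but it fell when suspension 1 was left out (log2 change −0.38, adjusted p = 0.00866).

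New CENP-A is placed at centromeres by the chaperone HJURP after licensing by the MIS18 complex, to which OIP5 and MIS18A belong. OIP5 had 1953, 1479.8 and 1427 in MALC against 2599.7, 2132 and 2148 in suspension (1.42-fold lower, adjusted p = 0.0192). HJURP had 1158, 973 and 897 in MALC and 1298, 1308 and 1339 in suspension, with the lowest suspension value above the highest MALC value (1.31-fold lower, adjusted p = 0.0161). MIS18A overlapped between the groups, since MALC 1 at 1365 was above suspension 2 at 1252. Its log2 change of −0.48 did not pass (adjusted p = 0.0755), whereas blocking on the sample number gave 0.0111. Of these 3 genes 2 fell. Without MALC 2, and without MALC 3, limma called none of the 3, while 2 lay under an unadjusted p of 0.05. The OIP5 call was also lost without suspension 1 and that of HJURP without suspension 2 or suspension 3 (adjusted p up to 0.0765 and 0.0652).

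The outer kinetochore genes fell in 10 of 12 cases and none rose (median log2 change −0.50). SPC25, NDC80, SPC24 and NUF2 encode the 4 subunits of the NDC80 complex, which grips microtubules. SPC25 had signals of 992, 636 and 566 in MALC 1, 2 and 3 against 1382, 1264 and 1286 in suspension. All MALC arrays were lower, and MALC 1 least so (1.83-fold lower, adjusted p = 0.00808). SPC24 fell with a log2 change of −0.57 (−0.35 with the mean of its probe sets, adjusted p = 0.013) and NDC80 with −0.53. NUF2 had 2761, 1954 and 1828 in MALC against 2808, 2566 and 2669.7 in suspension. MALC 1 was within the suspension range, and NUF2 did not pass (adjusted p = 0.114) except when blocked on the sample number (0.0442), with array weights, or when MALC 1 or both arrays numbered 1 were left out. The calls of SPC24 and NDC80 were lost without MALC 2 or MALC 3 and without suspension 1 and suspension 3, respectively (adjusted p up to 0.0937 and 0.0721).

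ZW10 and ZWILCH belong to the RZZ complex, which brings checkpoint proteins and dynein to kinetochores, and ZWINT helps to hold it there. ZWINT had 3633, 2903 and 2762 in MALC against 5418, 4808 and 5093 in suspension. The gap was larger than the spread of either group (1.65-fold lower, adjusted p = 0.00158). ZW10 had 629, 451 and 434 in MALC against 918, 764 and 808 in suspension (1.64-fold lower, adjusted p = 0.00615). ZWILCH had 2193, 1658 and 1492 against 3327, 2719 and 2615 (1.63-fold lower, adjusted p = 0.00817). All 3 genes kept their call whichever array was left out. KNTC1, the remaining subunit of the RZZ complex, was counted with the other genes listed by role below. It had 927, 831 and 829 in MALC against 937, 812 and 832 in suspension. Its groups overlapped on its 1 probe set, and it did not pass (log2 change 0.003, adjusted p = 0.978). The difference between KNTC1 and the other 2 genes of the complex, ZW10 and ZWILCH, was not tested.

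MIS12, DSN1 and NSL1 are subunits of the MIS12 complex, the bridge between the inner and outer layers. MIS12 and DSN1 fell, with log2 changes of −0.36 and −0.47. NSL1 had a change of −0.17 that did not pass (adjusted p = 0.117). CENPE, a kinesin motor, fell by 0.45 and CENPF, a large coiled-coil protein, by 0.30 on the log2 scale. CENPF no longer passed when any of MALC 2, MALC 3, suspension 2 and suspension 3 was left out (highest adjusted p 0.0853), nor DSN1 when any of MALC 2, MALC 3, suspension 1 and suspension 2 was (0.0934). The 10 falls of this group numbered 6 without MALC 2 or MALC 3.

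**Figure D3:**
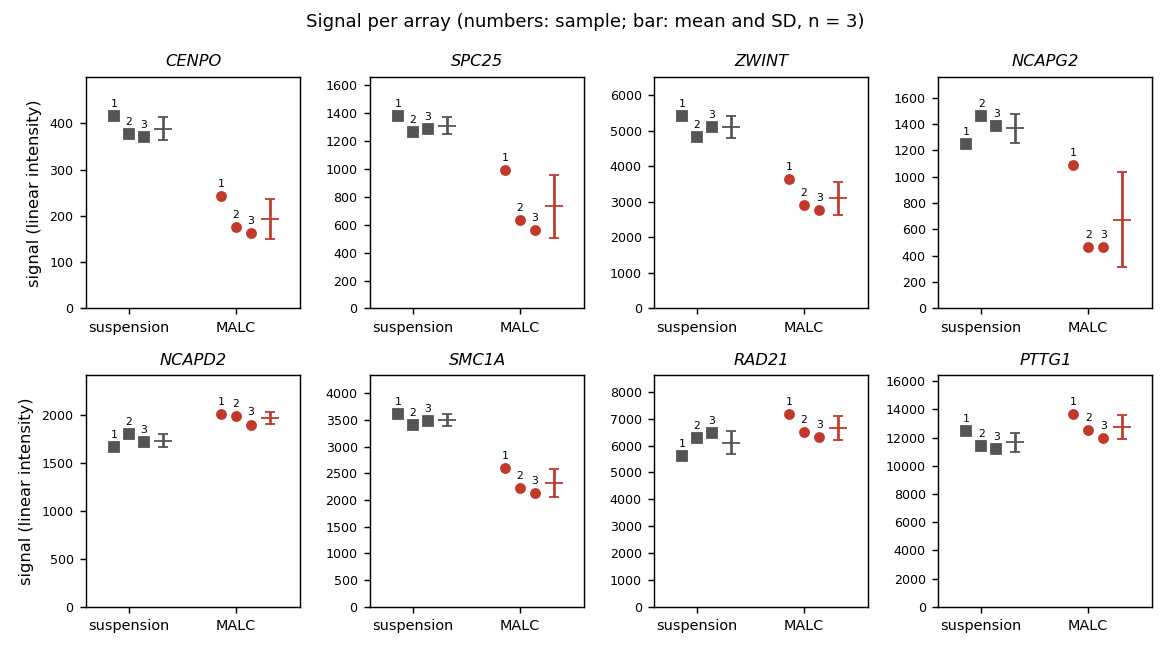
Linear signal (vertical axis, from 0) in each array of 8 of the genes, chosen after their values were seen; numbers give the sample, and bars the mean and SD of 3 arrays. CENPO, SPC25, ZWINT, NCAPG2 and SMC1A are lower in every MALC array, NCAPD2 is higher in every MALC array, and RAD21 and PTTG1 overlap.

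The 8 condensin genes split: 6 fell, SMC2 did not pass, and NCAPD2 rose (median log2 change −0.50). SMC2 and SMC4 are the ATPase arms shared by condensin I and II. NCAPD2, NCAPG and NCAPH complete condensin I, and NCAPD3, NCAPG2 and NCAPH2 condensin II. NCAPG2 had the largest fall of the 43 genes and the most uneven, with 1089.9 in MALC 1, 467 in MALC 2 and 464 in MALC 3 against 1249, 1463 and 1388 in suspension. MALC 1 thus lay far closer to suspension than to the other MALC arrays (2.17-fold lower, 673 ± 361 against 1367 ± 109, adjusted p = 0.0199). NCAPG2 no longer passed when any of MALC 2, MALC 3, suspension 2 and suspension 3 was left out (highest adjusted p 0.0749). NCAPH2 had 388, 319 and 304 in MALC against 508, 451 and 457 in suspension (1.39-fold lower, log2 change −0.47, adjusted p = 0.0081); the mean of its probe sets gave a smaller change of −0.28 (adjusted p = 0.00375). NCAPD3 fell by 0.40 on the log2 scale, a call lost without any array except MALC 1 (adjusted p up to 0.11).

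In condensin I, NCAPH had 1009.9, 671 and 649 in MALC against 1496, 1298 and 1228 in suspension and was 1.74-fold lower (adjusted p = 0.00738). NCAPG had 2359, 2172 and 1816 against 2965, 3140.1 and 3037, a 1.44-fold fall (adjusted p = 0.004). NCAPD2 went the other way, with 2006, 1989.6 and 1897 in MALC and 1668, 1798 and 1719 in suspension. The groups did not overlap, but the rise was small (1.14-fold, 1964 ± 58.9 against 1728 ± 65.7, adjusted p = 0.0471). Its log2 change stayed between 0.14 and 0.21 in the 17 alternatives that tested it, whereas its call was lost in 8, among them each of the 6 that left out an array (adjusted p up to 0.151). The difference between NCAPD2 and the other condensin I genes was not tested.

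SMC4 fell by 0.36 on the log2 scale (5541 ± 206 against 7154 ± 594, adjusted p = 0.00464), but with the mean of its probe sets the change was −0.20 (adjusted p = 0.116). SMC2 had 1638, 1048 and 958 in MALC against 1911, 1611 and 1605. MALC 1 lay within the suspension range, and SMC2 did not pass (log2 change −0.52, adjusted p = 0.0593), but did when blocked on the sample number (0.00837).

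Of the 4 cohesin genes, 2 fell and none rose (median log2 change −0.29). SMC1A and SMC3 form the ring's ATPase arms, RAD21 is the cleavable subunit that closes the ring, and STAG1 is an accessory subunit. SMC1A had 2606, 2219 and 2125 in MALC against 3608, 3400.2 and 3484 in suspension. The groups were well apart (1.51-fold lower, adjusted p = 0.00138), but the mean of its probe sets gave a smaller change of −0.28 (adjusted p = 0.0203). STAG1 had 274, 243 and 211 against 367, 309.6 and 296 (1.32-fold lower, adjusted p = 0.0252). STAG2, counted with the other genes listed by role below, was brighter, with means of 4777 in MALC and 4485 in suspension. Its change of 0.09 did not pass (adjusted p = 0.196). SMC3 had a change of −0.18 that did not pass (adjusted p = 0.084). RAD21 had 7175, 6511 and 6306 in MALC against 5612, 6276 and 6457 in suspension. Its groups overlapped, and its change of 0.12 did not pass (adjusted p = 0.201). STAG1 no longer passed when any of MALC 2, MALC 3, suspension 1 and suspension 2 was left out (highest adjusted p 0.0803), and 1 cohesin gene fell without each of these 4 arrays.

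Sister chromatids part when ESPL1 (separase), held in check by PTTG1 (securin), cuts RAD21, and the shugoshins SGO1 and SGO2 protect centromeric cohesin until then. Of these 4 genes, 2 fell (median log2 change −0.22). ESPL1 had 1974, 1551 and 1496 in MALC against 2534, 2079.8 and 2055 in suspension (1.33-fold lower, adjusted p = 0.0339). SGO1 had 279, 255 and 244 against 309, 307 and 309, with very even suspension values (1.18-fold lower, adjusted p = 0.0266). PTTG1 had 13678, 12553 and 11979 in MALC and 12456, 11427 and 11162 in suspension. The groups overlapped, and PTTG1 did not pass (log2 change 0.12, adjusted p = 0.144), though it rose when blocked on the sample number (0.0199). SGO2 did not overlap, but its change of −0.21 passed only in some alternatives (adjusted p = 0.0582; 0.0472 with the block). Leaving out MALC 2, MALC 3, suspension 2 or suspension 3 removed both calls in limma (adjusted p of SGO1 up to 0.0906, of ESPL1 up to 0.118), and 2 genes of the 4 were then lower at an unadjusted p under 0.05; without suspension 1 the ESPL1 call was lost as well.

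Several genes were read by more than 1 probe set. Over probe sets, 48 of the 76 above the filter fell and 2 rose (limma over 32768 probe sets), beside 20.4% and 21.2% of all probe sets. Of 21 genes with several probe sets above the filter, 10 had probe sets that differed in their call, and NSL1 was the 1 gene with changes of both signs (−0.53, −0.17 and 0.16). A dimmer RAD21 probe set had 3447, 3303 and 3143 in MALC against 2599, 2598 and 2694 in suspension. It did not overlap between the groups and rose (log2 change 0.32, adjusted p = 0.00381), unlike the brighter one, and RAD21 rose with the mean of its probe sets (0.22). A dimmer SGO1 probe set had 166, 121 and 87.6 in MALC against 376, 288 and 284, a log2 change of −1.27 (adjusted p = 0.00232) where the brighter had −0.24 and the mean of its probe sets −0.75. CENPU and CENPN were lower on each of their 3 probe sets above the filter, by 0.77 to 1.33 and by 0.50 to 1.14 on the log2 scale. Of the 4 SMC1A probe sets only the brightest passed, the others having changes of −0.06 to −0.30.

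**Figure D4:**
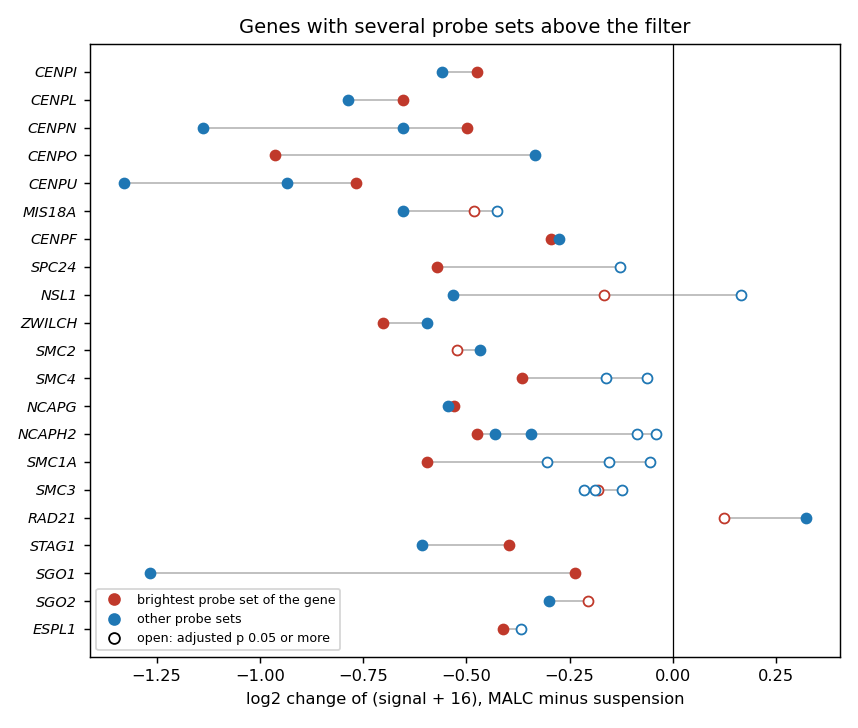
Log2 change of signal + 16 (MALC minus suspension, horizontal axis) of each probe set above the filter for the 21 genes with several; red marks the brightest, which stands for the gene, blue the others, and open points did not pass limma over probe sets. The wide lines of SGO1 (−1.27 to −0.24) and SMC1A (−0.60 to −0.06) show probe sets that differ in size, and RAD21 lies right of 0.

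Other genes that work at the same structures were listed by role: 40 genes, 37 of them tested. Of these 37, 20 fell and 2 rose (median log2 change −0.35), beside 23.7% and 19.0% of all genes tested. ESCO2, which acetylates cohesin in S phase, had 190.1, 136 and 115 in MALC against 273, 261 and 283 (1.80-fold lower, adjusted p = 0.00358). CENPX, an inner kinetochore and DNA repair protein, had 1690.0, 1229.8 and 1202 against 2535, 2226 and 2302 (1.72-fold lower, adjusted p = 0.00289). CENPB, which binds a satellite DNA motif, had 111, 88.8 and 98.7 against 199, 164 and 176 (1.69-fold lower, adjusted p = 0.000912). In all 3 genes each MALC array was below each suspension array. SPDL1, which recruits dynein to kinetochores, had 1130.5, 924 and 839 against 1637, 1540.4 and 1535 (1.63-fold lower, adjusted p = 0.00208). SKA3, a microtubule-binding partner of NDC80, had 492, 426 and 373 against 806, 641 and 627 (1.58-fold lower, adjusted p = 0.00532). MAD1L1, a spindle checkpoint scaffold, rose 2.42-fold, with 390.2, 572 and 570.4 in MALC against 191, 204 and 200.4 in suspension (adjusted p = 0.000637). Here too MALC 1 was nearest to suspension. MAU2, a cohesin loading factor, rose 1.37-fold, but with the mean of its probe sets it did not pass (log2 change 0.12, adjusted p = 0.0979). Its partner NIPBL changed direction with the probe sets used. Its brightest fell (log2 change −0.59, adjusted p = 0.00957), while it rose with the mean of its probe sets (0.21, adjusted p = 0.0226) and without _s_at and _x_at probe sets (0.64, adjusted p = 0.000801). Without _s_at and _x_at probe sets SPDL1 had a change of −0.25 and did not pass (adjusted p = 0.055). The rises of these 37 genes numbered 4 without suspension 1, when 18.4% of all genes rose.

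Genes of other steps of the cell cycle were set beside these. Of 28 mitotic kinases, spindle motors and their regulators 19 fell and none rose (median log2 change −0.48). Of 36 DNA replication genes 33 fell and none rose (median −0.61). Among all genes tested 23.7% fell and 19.0% rose. In the main fit no replication gene and no mitotic gene was higher at an unadjusted p under 0.05 in limma. With both arrays numbered 1 left out, limma called 1 replication gene higher, beside 25.4% of all genes. Without MALC 2 the falls numbered 17 of 43, 12 of 28 and 32 of 36 in these 3 sets, beside 15.3% of all genes. Without MALC 3 they numbered 17, 13 and 32, beside 16.7%. The differences between the sets were not tested.

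**Figure D5:**
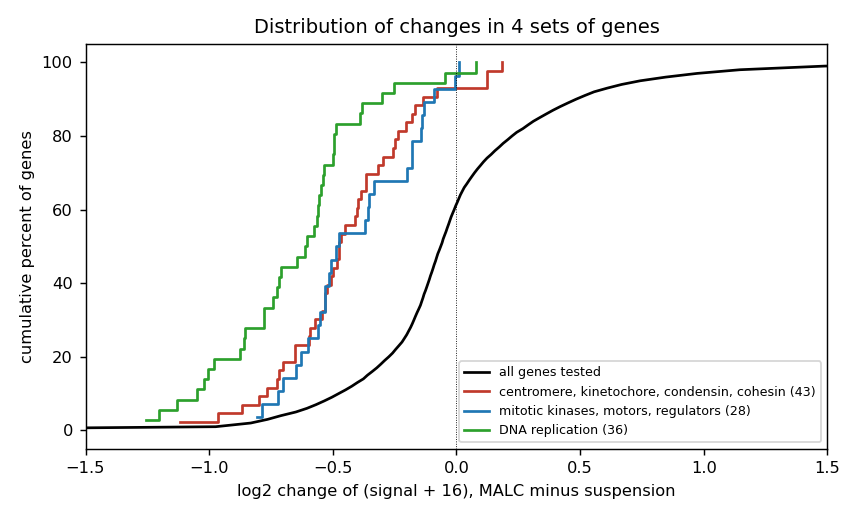
Cumulative percent of genes (vertical axis) by log2 change of signal + 16 (MALC minus suspension, horizontal axis, shown from −1.5 to 1.5). The line of the 43 genes runs close to that of the mitotic genes (medians −0.47 and −0.48), with the replication genes further left (−0.61) and all 13765 genes tested further right (−0.06).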

How the data were processed

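Total RNA (Trizol; 200 ng, one-cycle biotin labelling) was hybridised to Affymetrix U133 Plus 2.0 arrays, per the labels. The values deposited by the authors are linear intensities per probe set; MAS5 is the only tool in the submitters' processing notes, and normalization is not given in the sources used here. Groups and numbers came from sample titles.

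The 62 control probe sets were left out, and symbols were updated through Entrez identifiers (RefSeq, GRCh38.p14). After log2(intensity + 16), probe sets whose mean reached the 40th percentile (a signal of 53.4) were kept, and each gene was represented by its brightest. The comparison used limma 3.58.1 (R 4.3.3; eBayes with trend, two-sided), with group as the only term. The fit was tested on simulated data with independent noise for each gene. Such data lack shifts that many genes of an array share, so the fit was not tested for these. The number of arrays limits the precision.

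The members and lists were chosen with earlier results of these data known, and no list was given a test. Values by array are given for up to 4 called members of a role group with the largest change, each member that rose, the 6 other listed genes with the largest called change, and some chosen after their values were seen, MAU2 and NIPBL among them.

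Both groups carry sample numbers 1 to 3, and what these mark is not stated in the labels. Same-numbered samples had deviations from their group means that correlated at 0.245, 0.168 and 0.14, so the numbers were taken to pair the samples in an alternative fit blocked on them. The pairing was thus read from these same data, and calls of the blocked fit are not separate evidence. Numbers 2 and 3 could not be told apart (0.175 for MALC 3 and suspension 2, 0.14 for MALC 2 and suspension 3). The 18 alternatives changed the pseudocount, filter, normalization, variance prior, array weights, probe set, block and arrays used.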

Additional observations from a re-analysis of the deposited data

How the results depend on the processing

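The falls of the 43 genes stayed within 1.5 times their number in 16 of 18 alternatives. The exceptions were the fits without MALC 2 and without MALC 3. The falls numbered 36 without MALC 1, and 23, 21 and 21 without suspension 1, 2 and 3. All 6 of these fits leave fewer samples. Why these fits differ was not tested. With an array left out, the falls ranged from 17 to 36, beside 15.3% to 26.4% of all genes. The median of the 43 ranged from −0.59 to −0.37. No change of a member switched sign in any alternative that tested it. Rises among the 43 numbered 0 in limma without the filter, after median centring, without _s_at and _x_at probe sets (34 tested) and whenever an array was left out (with 0 to 2 at an unadjusted p under 0.05), and 2 after quantile normalization, with array weights, with the mean of probe sets, when blocked on the sample number and without both arrays numbered 1. Falls of the probe sets of the 43 genes ranged from 29 to 60 with an array left out. Shares of all probe sets were computed for the main fit only (20.4% fell and 21.2% rose). Rises of these probe sets numbered 1 without the filter, after median centring and whenever an array was left out, and 4 with array weights. Without _s_at and _x_at probe sets they numbered 0 in limma. The probe sets that rose in the main fit, of NCAPD2 and RAD21, end in _s_at and were dropped there. Rises of the other listed genes numbered 4 with array weights (26.5% of all genes rose), without _s_at and _x_at probe sets (18.6%) and without both arrays numbered 1 (25.4%). With an array left out they numbered 2 to 4, beside 13.6% to 20.8% of all genes. Of these listed genes, NIPBL rose instead of falling when its probe sets were averaged (0.21) or those ending in _s_at or _x_at were dropped (0.64). The cause was not tested. Of all genes, 5230 fell with array weights, and 2113 to 3632 with an array left out. With the replicate block, besides the calls given above, no other member's call changed (35 lower and 2 higher). Detection calls were not used, so dim signals were not shown to be above background.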
